A study of Mus musculus with 8 samples.

Results

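The receptors described here are G protein-coupled receptors through which hormones, neurotransmitters and fatty acids raise or lower glucagon secretion. They were chosen by gene symbol, and 8 of the 10 genes listed had a row with their symbol, 1 row each, of 19494 named genes measured in all. These were the somatostatin receptors Sstr1, Sstr2 and Sstr3, the glucagon receptor Gcgr, the incretin receptors Glp1r and Gipr, the vasopressin receptor Avpr1b and the fatty acid receptor Ffar1. For the adrenaline and noradrenaline receptors Adrb1 and Adra2a no row carried the symbol, and they were not analysed here. Expression was measured on Clariom S arrays in alphaTC1.9 cells, a cultured mouse line of glucagon-producing alpha cells, with 4 arrays of control cells and 4 of cells with knockdown of insulin-degrading enzyme (Ide) by a small interfering RNA (IDE-KD). Both groups were grown at 16 mM glucose with serum and received no other treatment, per the labels. The sources used here do not state whether control cells received a non-targeting RNA, nor the time from knockdown to harvest. All arrays are of 1 cell line, and the labels call the replicates biological without naming separate cultures, so p-values rest on a spread between samples that may be technical.

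Glucagon release from the alpha cell is set by calcium and cyclic AMP. Receptors that couple to the stimulatory G protein Gs (the glucagon, GLP-1 and GIP receptors) raise cyclic AMP, those that couple to Gi (the somatostatin receptors) lower it and open potassium channels, and those that couple to Gq (the vasopressin V1b and fatty acid receptors) release calcium from stores. Somatostatin from neighbouring delta cells is a main brake on alpha cells, and its receptor type 2 is known as the main somatostatin receptor of rodent alpha cells.

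Of the 8 receptor genes, 1 had groups that did not overlap, with IDE-KD higher, as had 1.39% of all rows. Sstr2 was higher on every IDE-KD array than on every control array, by 1.30-fold, and this difference did not pass adjustment over all rows. The remaining 7 genes had overlapping groups and 95% confidence intervals that included 0.

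The promoters of Sstr2 and Sstr3 are shown here, because Sstr2 is the receptor whose groups were apart and Sstr3 the other family member whose values lay above the median negative control row on all 8 arrays. They come from RefSeq (GRCm38.p6), cover the 250 bases before the annotated transcript start and run 5′ to 3′ on the gene's own strand. The Sstr2 stretch lies at chr11:113619077-113619326, plus strand, and the Sstr3 stretch, from the outer of its 2 annotated starts, at chr15:78544346-78544595, minus strand. Capitals mark the letters of the cyclic AMP response element, TGACGTCA in full and TGACG in its short form.
Sstr2: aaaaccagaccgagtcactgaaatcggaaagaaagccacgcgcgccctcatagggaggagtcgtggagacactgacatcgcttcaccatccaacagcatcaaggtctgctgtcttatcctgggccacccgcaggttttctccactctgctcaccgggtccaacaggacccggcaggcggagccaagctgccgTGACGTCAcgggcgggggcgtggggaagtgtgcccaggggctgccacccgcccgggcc
Sstr3: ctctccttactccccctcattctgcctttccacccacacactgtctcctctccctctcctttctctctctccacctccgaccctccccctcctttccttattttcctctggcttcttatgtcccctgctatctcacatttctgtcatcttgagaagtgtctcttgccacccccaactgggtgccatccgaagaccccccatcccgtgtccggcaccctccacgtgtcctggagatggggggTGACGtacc
The full element, sought on both strands, lay in the Sstr2 stretch with its first base 58 bases before the start, and 1.55% of 32851 mouse promoter stretches of the same length held it. The short element, which is part of the full one, lay in the Sstr3 stretch with its first base 9 bases before the start, and 17.8% of all stretches held it on either strand. RefSeq stretches were found for 7 of the 10 genes listed. Among these, the full element was in that of Sstr2 alone, and the short one also in those of Sstr3, Adra2a and Adrb1. For Sstr3 this holds for the outer start alone, as the stretch before its other start held neither form. These letters describe the sequence, and no binding was measured.

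Values are log2 expression as deposited, where 1 unit is a 2-fold difference, and RMA is named in the submitters' processing notes. Their medians over 22142 tested rows lay between 5.10 and 5.17 on the 8 arrays, and correlations between arrays ran from 0.984 to 0.993 within groups. IDE-KD arrays 1 and 3 stood apart by a small spread of values, with an SD over rows of 2.16 and 2.13 where the other arrays had 2.20 to 2.25. As a mark of low signal, the median of the 5222 negative control rows of the array was 4.16. The targeted gene Ide read lower in IDE-KD cells, going from 8.62 ± 0.10 to 8.01 ± 0.11 (SD, n = 4 each), or 1.53-fold. Its groups did not overlap (exact two-sided permutation p = 0.0286). The unadjusted limma p of Ide was 0.000164, rank 3 of 22142, and the adjusted limma p was 1.00, so the targeted gene did not pass the adjustment either. Gcg, the glucagon gene that defines alpha cells, stood at 12.06 in both groups. All 10 measured genes of 15 alpha cell markers lay above the median negative control row, with mean levels of 9.19 to 9.24 on control and 9.10 to 9.23 on IDE-KD arrays. Markers of other islet cells averaged 4.47 to 4.74 and 4.56 to 4.83, with 7 of 12 measured genes above that row. Markers of stromal, immune, endothelial and exocrine cells averaged 3.67 to 3.96 and 3.84 to 4.09, with 6 of 12 above it. The ranges of the 2 groups overlapped for all 3 marker lists. Single genes read higher in IDE-KD cells for 4 of 10 alpha cell, 9 of 12 other islet and 10 of 12 stromal, immune, endothelial and exocrine markers. The median log2 differences of these lists were -0.05, 0.13 and 0.10, against 0.0074 over all rows. No marker passed the adjusted threshold. In bulk RNA, fewer cells of a type and less RNA per cell cannot be told apart.

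**Figure D1:**
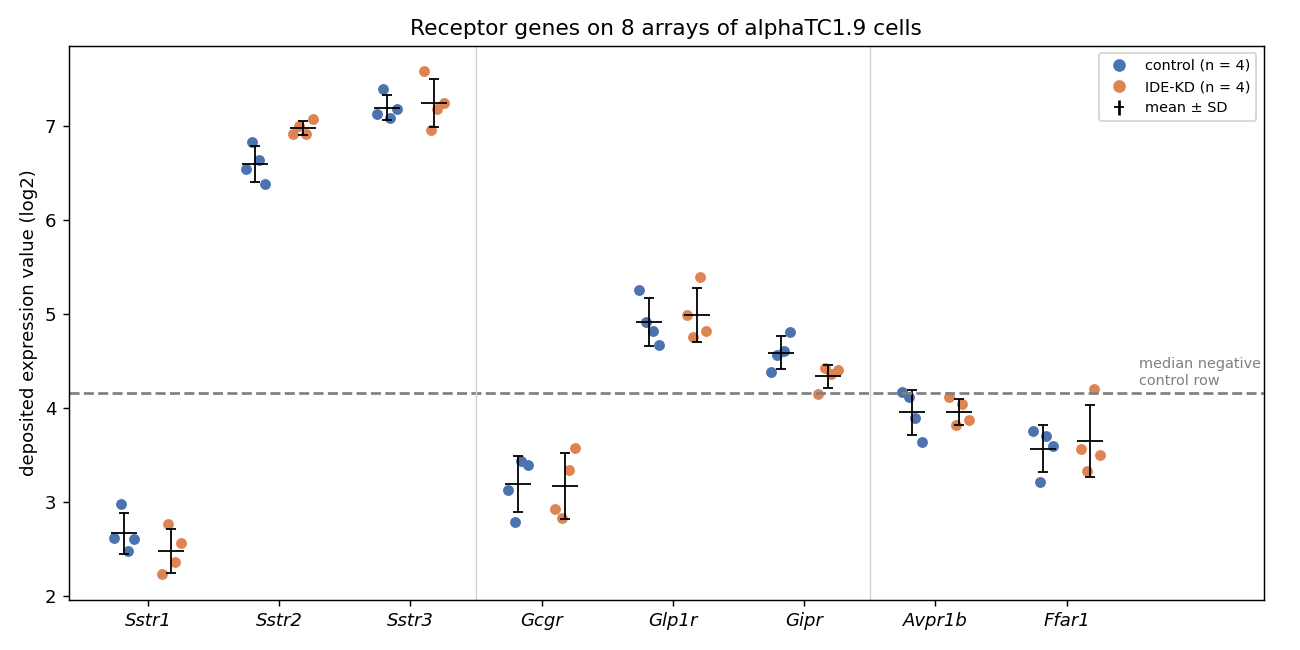
Deposited log2 expression value of each receptor gene on the 4 control arrays (blue) and the 4 IDE-KD arrays (orange), in replicate order from left to right, with the mean ± SD in black and the median negative control row of 4.16 as a dashed line. Sstr2 is the gene whose groups do not overlap, with control arrays up to 6.83 and IDE-KD arrays from 6.91, and Sstr1, Gcgr, Avpr1b and Ffar1 have means below the dashed line.

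The receptors differed in how far they stood above the array's background. Sstr3 lay above 96.6% of the negative control rows, Sstr2 above 94.4%, Glp1r above 67.3% and Gipr above 57.0%. These 4 genes exceeded the array's own median negative control row on 8 of 8 arrays. Against the 95th percentile of the array's negative control rows, Sstr3 was higher on 8 of 8 arrays, and Sstr2 on 0 of 4 control and 3 of 4 IDE-KD arrays. Some of the Sstr2 margins were small, so these counts do not mean absence in control cells. Control array 2 read 6.83 against a percentile of 6.89, and IDE-KD array 1 read 6.92 against 6.91. Glp1r and Gipr were above this percentile on 0 arrays. Avpr1b lay above 45.6% of the negative control rows, Ffar1 above 37.9%, Gcgr above 28.3% and Sstr1 above 15.8%. Avpr1b and Ffar1 each exceeded the median negative control row on 1 array, and Gcgr and Sstr1 on 0. The values of these last 4 genes were therefore no higher than those of typical negative control rows, where differences are compressed. Probes differ in their affinity, so values of different genes were not ranked as transcript amounts.

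The inhibitory receptors come first. Sstr2, which encodes the Gi-coupled somatostatin receptor 2, read 6.54, 6.83, 6.64 and 6.38 on control arrays 1 to 4 and 6.92, 7.00, 6.91 and 7.08 on IDE-KD arrays 1 to 4. The lowest IDE-KD array was above the highest control array, and the IDE-KD arrays lay close together. The group levels were 6.60 ± 0.19 and 6.98 ± 0.08 (SD, n = 4 each), which differ by 0.38 on the log2 scale (SE 0.13, 95% confidence interval 0.10 to 0.65). This is 1.30-fold higher in IDE-KD cells, with an interval of 1.08-fold to 1.57-fold. An exact two-sided permutation of the 8 values gave 0.0286, the lowest p possible with groups of 4. The unadjusted limma p was 0.0105, rank 199 of 22142, and the Benjamini-Hochberg adjusted p over all rows was 1.00, so the difference did not pass the threshold of 0.05.

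The Sstr2 value was read beside the background of the whole array. Of all rows, 1.39% had groups that did not overlap with IDE-KD higher, and 1.41% with IDE-KD lower, while 1 of the 8 receptor genes did so in the higher and 0 in the lower direction. An unadjusted p under 0.05 was reached by 4.59% of rows and by Sstr2 among the receptors. At an adjusted p under 0.05, 0 of 22142 rows were called in limma (0% of those tested, 1017 at an unadjusted p under 0.05), and 0 of the 8 receptors. Without IDE-KD arrays 1 and 3, which had the smallest spread of values, the Sstr2 difference was 0.44 (SE 0.15). In 1 fit of all 8 arrays it was 0.33 (SE 0.18) between odd-numbered and 0.43 (SE 0.18) between even-numbered arrays, from 2 arrays a group each. Separate fits on odd-numbered or even-numbered arrays alone gave the same differences, with SE 0.16 and 0.20. Leaving out 1 array at a time gave 0.30 to 0.45.

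**Figure D2:**
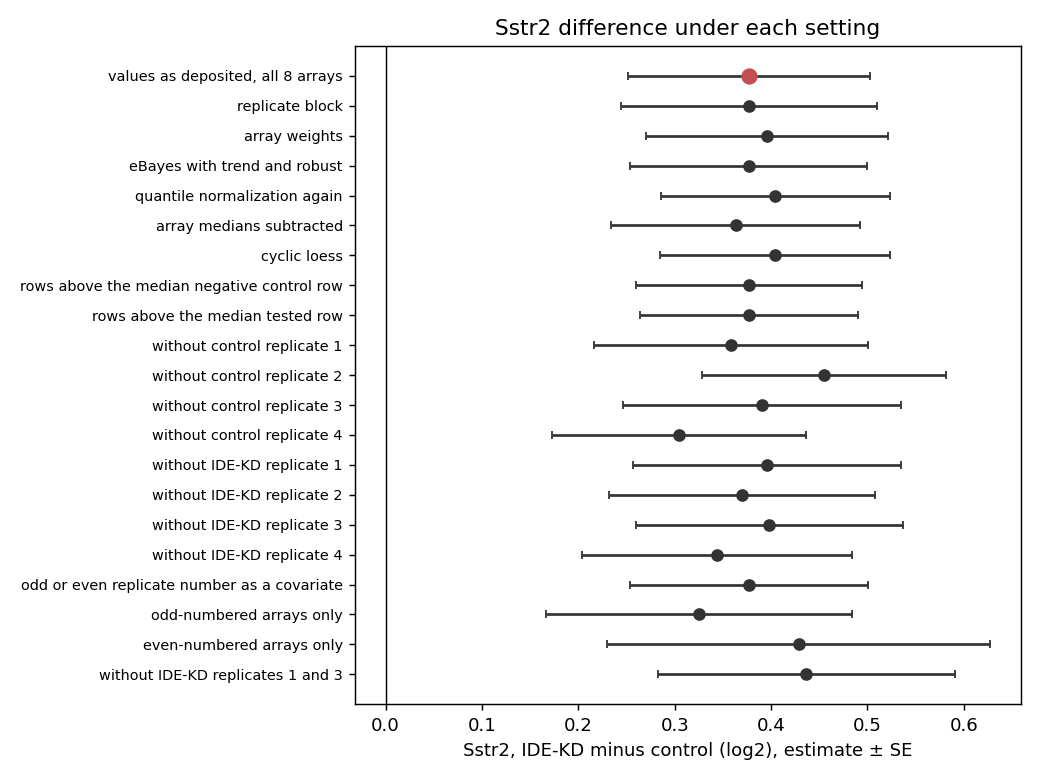
Difference of Sstr2 between IDE-KD and control arrays (log2, estimate ± SE) with the values as deposited (red, 0.38) and under 20 other settings (black). Estimates run from 0.30 to 0.45, all above 0 and none past the adjusted threshold.

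Sstr3, which encodes the somatostatin receptor known for its place in neuronal cilia, did not separate the groups. It read 7.13, 7.39, 7.09 and 7.18 on the control arrays and 7.59, 6.96, 7.19 and 7.25 on the IDE-KD arrays. Both the highest and the lowest of the 8 values were IDE-KD arrays. The levels of 7.20 ± 0.13 and 7.25 ± 0.26 (SD, n = 4 each) differed on the log2 scale by 0.05 (SE 0.14, 95% confidence interval -0.26 to 0.36; exact two-sided permutation p = 0.771). The upper bound of that interval is 1.29-fold higher and the lower bound 1.20-fold lower.

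Sstr1, a further Gi-coupled somatostatin receptor gene, lay below the median negative control row on every array. It read 2.62, 2.98, 2.48 and 2.61 on the control arrays and 2.23, 2.77, 2.37 and 2.57 on the IDE-KD arrays, and the groups overlapped. The log2 difference was -0.19 (SE 0.15, 95% confidence interval -0.52 to 0.14; exact two-sided permutation p = 0.314). Without control array 2, the highest value, it was -0.08.

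The change of Sstr2 was compared with that of the other somatostatin receptors within arrays. Sstr2 was the receptor with the smallest p of the 8 and had groups apart, so these comparisons are not separate support for its difference. The Sstr2 value minus the Sstr3 value on the same array was higher in IDE-KD cells by 0.33 (exact two-sided permutation p = 0.114). The Sstr2 value minus the Sstr1 value was higher by 0.56, with p = 0.0286 in the same exact test. Adjusted over these 2 comparisons the p-values were 0.114 and 0.0571, so neither difference in change passed 0.05. This adjustment does not allow for the choice of Sstr2 among the receptors. Sstr1 entered at background level, which limits the second comparison.

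The Gs-coupled receptors did not separate the groups either. Gipr, which encodes the receptor for the gut hormone GIP, a peptide that stimulates glucagon release, read 4.39, 4.56, 4.60 and 4.81 on the control arrays and 4.15, 4.43, 4.37 and 4.40 on the IDE-KD arrays. The groups overlapped through control array 1, which lay below IDE-KD arrays 2 and 4. The levels of 4.59 ± 0.18 and 4.34 ± 0.13 (SD, n = 4 each) differed on the log2 scale by -0.25 (SE 0.13, 95% confidence interval -0.53 to 0.02). Exact two-sided permutation gave p = 0.0857, and limma an unadjusted p of 0.0699 and an adjusted p of 1.00. Gipr had the second smallest p of the 8 receptors, at rank 1445 of all rows, and its levels were close to the median negative control row.

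Glp1r, the receptor gene for GLP-1, a gut hormone that lowers glucagon release, read 5.26, 4.92, 4.82 and 4.67 on the control arrays and 4.99, 4.75, 5.39 and 4.82 on the IDE-KD arrays. Control array 1 and IDE-KD array 3 were high, and the groups overlapped over most of their range. The log2 difference was 0.07 (SE 0.17, 95% confidence interval -0.29 to 0.43; exact two-sided permutation p = 0.657).

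Gcgr, which encodes the receptor for glucagon itself and so allows an alpha cell to respond to its own hormone, lay below the median negative control row on every array. It read 3.14, 2.79, 3.44 and 3.40 on the control arrays and 2.93, 2.84, 3.34 and 3.58 on the IDE-KD arrays. Arrays 3 and 4 were the higher in both groups, and the means were close. The log2 difference was -0.02 (SE 0.19, 95% confidence interval -0.43 to 0.39; exact two-sided permutation p = 0.914).

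The Gq-coupled receptors were near background. Avpr1b, the receptor gene through which vasopressin stimulates glucagon release, read 4.17, 4.12, 3.90 and 3.64 on the control arrays and 4.12, 3.82, 4.05 and 3.87 on the IDE-KD arrays. All IDE-KD values lay inside the control range, and the log2 difference was 0.01 (SE 0.14, 95% confidence interval -0.30 to 0.32; exact two-sided permutation p = 1.00). Ffar1, the gene of a receptor for long-chain fatty acids, read 3.76, 3.21, 3.70 and 3.60 on the control arrays and 3.57, 3.34, 4.21 and 3.50 on the IDE-KD arrays. IDE-KD array 3 was the highest of the 8. The log2 difference was 0.08 (SE 0.19, 95% confidence interval -0.32 to 0.49; exact two-sided permutation p = 0.800).

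**Figure D3:**
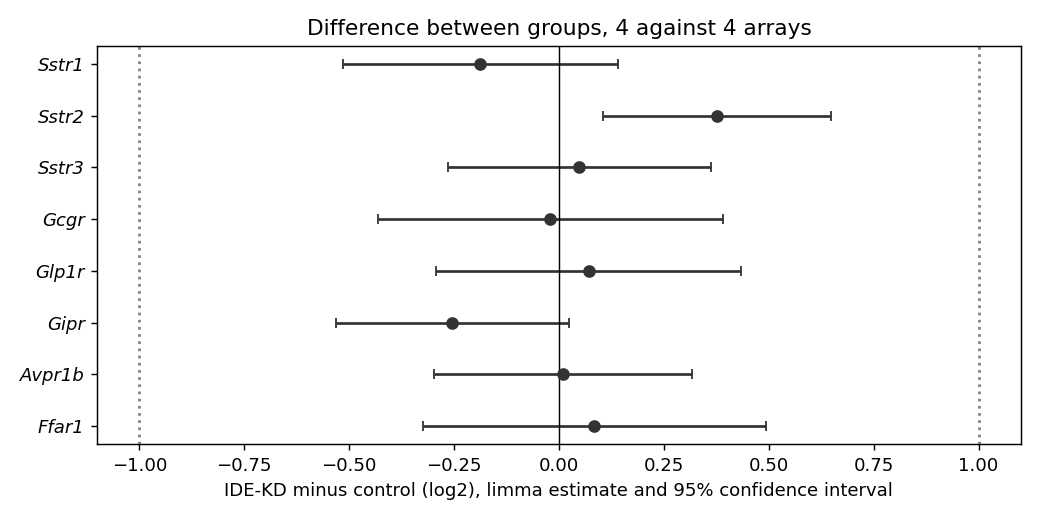
Difference between IDE-KD and control arrays for each receptor gene (log2, limma estimate with its 95% confidence interval, 4 against 4 arrays), with dotted lines at a 2-fold difference in either direction. The interval of Sstr2, 0.10 to 0.65, lies above 0, those of the other 7 genes include 0, and all 8 lie inside the dotted lines.

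The 8 differences had a median of 0.03, against 0.0074 over all rows, with 5 above and 3 below 0. The signs of Sstr3, Gcgr, Glp1r, Avpr1b and Ffar1 were not stable, since each turned with at least 1 array left out. That of Avpr1b also turned under every rescaling tried. The 95% confidence intervals excluded a 2-fold change for all 8 receptor genes and a 1.5-fold change for 7, Sstr2 being the exception. These bounds apply to the deposited values, in which low signals are compressed, and so say least about Sstr1, Gcgr, Avpr1b and Ffar1. Within groups the SD ran from 0.08 (Sstr2 on IDE-KD arrays) to 0.38 (Ffar1 on IDE-KD arrays).

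The peptide ligands of these receptors were measured on the same arrays. For Sst, which encodes somatostatin, control cells gave 5.49 ± 0.33 and IDE-KD cells 5.64 ± 0.15 (SD, n = 4 each), a difference of 0.15 (SE 0.16). Cort, which encodes cortistatin, a peptide that also binds somatostatin receptors, read 7.52 ± 0.21 and 7.87 ± 0.43 (SD, n = 4 each), a difference of 0.35 (SE 0.19; exact two-sided permutation p = 0.286). Cort read 8.21 and 8.27 on IDE-KD arrays 1 and 3. On IDE-KD arrays 2 and 4 it read 7.46 and 7.55, inside the control range. Control arrays 1 and 3 were likewise the higher of their group, at 7.71 and 7.68, with control arrays 2 and 4 at 7.33 and 7.35. Gip differed by -0.04 (SE 0.14), Avp by 0.12 (SE 0.26) and Gcg by 0.0043 (SE 0.11). Of these 5 ligand genes, 0 passed the test in either direction.

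The signalling chain below and around the receptors is given by gene lists, none of which held a member past the adjusted threshold in either direction. Among 29 measured related receptors of 35 listed, 17 were higher and 12 lower in IDE-KD cells, with a median log2 difference of 0.03. The smallest p belonged to Glp2r, the GLP-2 receptor gene, at 3.82 ± 0.20 and 3.18 ± 0.35 (SD, n = 4 each), a difference of -0.64 (SE 0.17) at levels below the median negative control row. Its groups did not overlap, with IDE-KD lower, which held for 1.41% of all rows and for no other gene of this list. It was followed by Gpr119, the gene of a lipid receptor that raises cyclic AMP in islet and gut endocrine cells, at 7.50 ± 0.16 and 7.78 ± 0.22 (SD, n = 4 each), a difference of 0.28 (SE 0.14) with overlapping groups.

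Among 26 measured G protein subunit genes of 27 listed, 14 were higher and 12 lower (median 0.0033). The smallest p values were those of the gamma subunit gene Gng7, at -0.56 (SE 0.22), and the beta subunit gene Gnb4, at 0.27 (SE 0.15). Both lay below the median negative control row in both groups, and the groups overlapped. The groups of 1 gene of this list, the beta subunit gene Gnb5, did not overlap, at a difference of -0.13 (SE 0.11). Groups apart with IDE-KD lower were found for 1.41% of all rows. Cyclic AMP production, breakdown and sensing had 15 higher and 20 lower of 35 measured genes among 38 listed, with a median of -0.01. Rapgef3, which encodes the cyclic AMP sensor Epac1, differed by 0.39 (SE 0.17) from 4.07 ± 0.36 to 4.46 ± 0.14 (SD, n = 4 each), with overlapping groups. Its control mean lay below the median negative control row and its IDE-KD mean above that row. Crtc1, the gene of a CREB coactivator, differed by -0.20 (SE 0.11) from 7.97 ± 0.07 to 7.77 ± 0.08 (SD, n = 4 each). Its groups did not overlap, nor did those of Pde10a, at -0.19 (SE 0.12). In this list 2 genes were apart with IDE-KD lower and 0 higher, beside 1.41% and 1.39% of all rows.

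Phospholipase C and calcium release genes, which act below Gq, had 4 higher and 6 lower of 10 measured among 12 listed, with a median of -0.03. The phospholipase genes Plcb3 and Plcb4 had the smallest p values there, at -0.20 (SE 0.12) and -0.19 (SE 0.12), with overlapping groups. Receptor kinases, arrestins and regulators of G protein signalling had 10 higher and 9 lower of 19 measured among 21 listed, with a median of 0.04. Rgs4, whose product speeds the switching off of Gi and Gq, read 9.53 ± 0.12 and 9.87 ± 0.04 (SD, n = 4 each), a difference of 0.33 (SE 0.11). Grk6, a gene of a kinase that marks active receptors for arrestin, read 6.55 ± 0.27 and 6.14 ± 0.08 (SD, n = 4 each), a difference of -0.42 (SE 0.14). Neither gene's groups overlapped (exact two-sided permutation p = 0.0286 each), and both had an adjusted p of 1.00 in limma. Rgs17 also had groups that did not overlap, at 0.22 (SE 0.12). In this list 2 genes were apart with IDE-KD higher and 1 lower, beside 1.39% and 1.41% of all rows. Of 9 genes known to respond to cyclic AMP and CREB, 5 were higher and 4 lower (median 0.01). The orphan nuclear receptor genes Nr4a1 and Nr4a2 differed by 0.21 (SE 0.12) and 0.21 (SE 0.16), with overlapping groups.

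**Figure D4:**
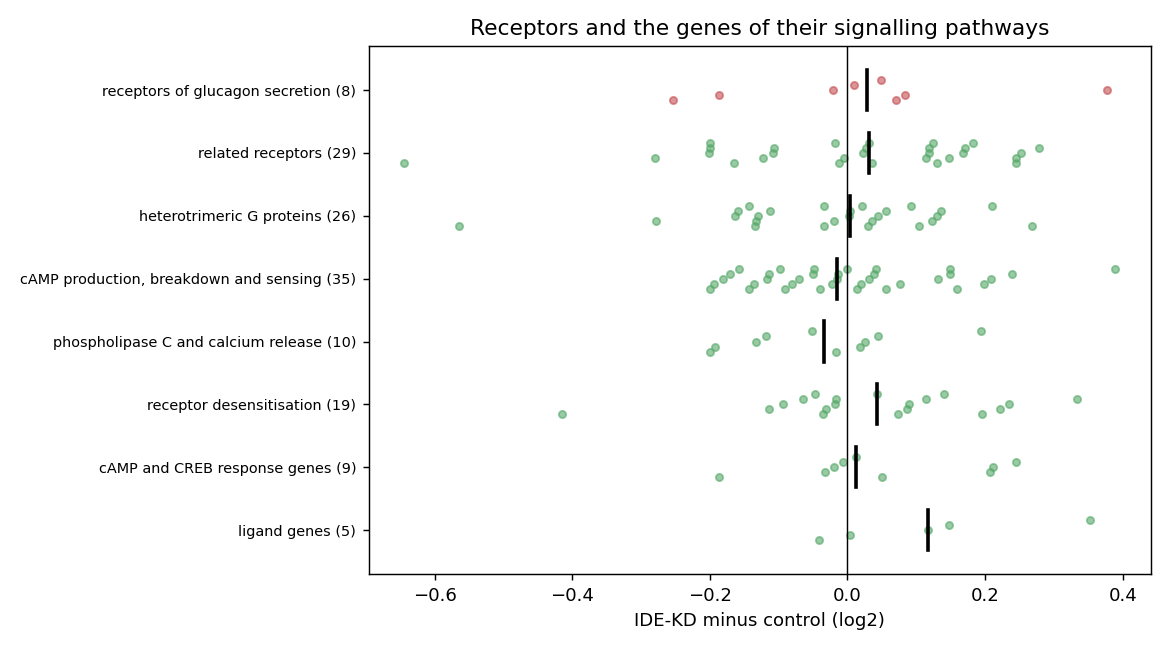
Difference between IDE-KD and control cells (log2) for each measured gene of the receptor list (red) and of the lists of ligands and signalling genes (green), with the number of measured genes in brackets and each list's median as a black bar. The medians lie between -0.03 and 0.12 and no point passed the adjusted threshold.

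The genes whose values ran most like those of Sstr2 and Sstr3 over the 8 arrays were listed as a description, taking the highest of 17039 named genes, so the coefficients are high by selection. For Sstr2 they were Cd2, Anks4b, Gcnt2, Hspa13 and Minar2, with Pearson coefficients of 0.948 to 0.963. After group means were removed, the coefficients of these genes with Sstr2 were 0.839 to 0.965. For Sstr3 they were Rnf215, Ip6k1, Tmem94, Smad9 and Insl6, with coefficients of 0.95 to 0.977. None of the other receptors was among them, and the coefficient between Sstr2 and Sstr3 was 0.198. Cd2, Anks4b and Insl6 had means below the median negative control row in both groups. All these values share the same 8 arrays and their normalization.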

How the data were processed

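Log2 expression values of 8 arrays were used as deposited by the authors. RMA, oligo and limma appear in the submitters' processing notes, with neither version nor role. Scaling between arrays removes a global change in RNA per cell, and low signals are compressed. The table held 29129 rows, of which 22142 transcript cluster rows were tested, 19527 of them with 1 gene symbol in the platform annotation, 0 with several and 2615 with none. The sources used here name no genome build for the array. Groups were compared by limma 3.58.1 under R 4.3.3 (lmFit, then eBayes). No covariate was used, p-values were adjusted over all tested rows by Benjamini-Hochberg, and the threshold was 0.05. Exact permutation tests were two-sided. The number of arrays limits precision, with a median half-width of the 95% interval of 0.32. The limma step was checked on simulated data. All receptors were named whatever their values, with, in each signalling list, the 2 genes of smallest p where none passed. Genes of these lists whose groups did not overlap were also named, a choice made from their values. Named too were the 5 genes most correlated with the receptor of smallest p and with that of highest mean. These correlated genes were sought without olfactory and vomeronasal receptors, predicted genes and clones. The receptors and lists were chosen with earlier results of these data known. Alternatives were a replicate block, array weights, other eBayes settings, 3 rescalings, 2 filters on dim rows and leaving out arrays.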

Additional observations from a re-analysis of the deposited data

How the results depend on the processing

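Under all 20 alternatives, 4 of them added after seeing the data (odd or even replicate number as a covariate, odd or even arrays alone, and no IDE-KD arrays 1 and 3), limma called 0 rows and 0 receptors. The smallest adjusted p over all rows was 0.152 to 1.00, and 443 to 1811 rows had an unadjusted p under 0.05, the lowest count where fewest rows were tested. Sstr1, Sstr2 and Gipr kept their sign in every setting that tested them. With 1 array left out at a time the log2 difference was 0.30 to 0.45 for Sstr2, -0.32 to -0.18 for Gipr, -0.28 to -0.084 for Sstr1, -0.065 to 0.14 for Sstr3, -0.16 to 0.091 for Gcgr, -0.063 to 0.19 for Glp1r, -0.096 to 0.080 for Avpr1b and -0.10 to 0.19 for Ffar1. Avpr1b was -0.040 after quantile normalization again, -0.0044 after subtracting array medians and -0.037 after cyclic loess. On even-numbered arrays alone Sstr3 was -0.18, Gcgr 0.11, Glp1r -0.0079 and Avpr1b -0.030. Without IDE-KD arrays 1 and 3, Sstr3 was -0.092, Gcgr 0.016, Glp1r -0.13, Avpr1b -0.11 and Ffar1 -0.15, and Sstr1 was -0.0034. The cause was not tested. Filters on dim rows left 4 and 2 of the receptors. No receptor had a second row to try.

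With the replicate number as a block, Sstr2 was 0.38 (SE 0.13) with an unadjusted limma p of 0.0167 and an adjusted p of 0.816, and the count of called rows stayed at 0. Same-numbered arrays had deviations from their group means that correlated over rows at 0.102, 0.129, 0.0876 and 0.0985 for numbers 1 to 4, so not every pair exceeded 0.1 and the numbers were not taken as pairs. Not every array correlated best with its own number.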

Other observations

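Deviations from the group means, correlated over the 22142 rows between a control and an IDE-KD array, followed whether the replicate numbers were odd or even. The coefficient was above 0 in 8 of 8 pairs with both numbers odd or both even (0.0247 to 0.209), and below 0 in 8 of 8 pairs with 1 odd and 1 even number (-0.225 to -0.048). Deviations within a group sum to 0 on each row, so coefficients of both signs must occur for each array. The pairs are therefore not independent observations. The labels give no meaning to odd and even numbers. Among the receptors, Sstr3 was the gene whose differences lay furthest apart by this division, at 0.28 (SE 0.19) on odd-numbered and -0.18 (SE 0.19) on even-numbered arrays. The difference between these values was 0.46 (SE 0.26), less than 2 standard errors. Sstr2 gave 0.33 and 0.43, a difference of -0.10 (SE 0.25). The division was chosen after the values were seen.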
